A study of Mus musculus with 18 samples.

Results

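The Nr4a orphan nuclear receptors were followed in the kidney of mice under chronic social defeat stress (CSDS), with and without the antidepressant fluoxetine (FLX). The members were the rows named Nr4a1, Nr4a2 or Nr4a3, 3 of the 32675 genes listed. Right kidneys of 18 wild-type male C57BL/6 mice were sequenced, 6 in each of 3 groups. By the methods the mice of all groups were bought at 6 weeks of age and then acclimatized. Ctrl mice were handled daily and not defeated. Mice of the PBS group (labelled StressPbs) were attacked by a CD-1 mouse in daily sessions of 10 min over 14 days. They received a daily intraperitoneal injection of phosphate-buffered saline. Mice of the FLX group (labelled StressFlx) were defeated in the same way and received fluoxetine at 10 mg per kg per day. The methods state no injection for the Ctrl mice, and no group received fluoxetine without defeat, so that stress and injection cannot be told apart in PBS versus Ctrl. Whole kidney was measured, in which fewer cells of a type and less RNA per cell cannot be told apart.

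Nr4a1, Nr4a2 and Nr4a3 encode transcription factors that are called orphans because no hormone is known to switch them on in the way a steroid switches on its receptor. Their activity is set largely by how much protein is made, and their genes are immediate early genes, transcribed within minutes of a signal without new protein synthesis. Signals that raise cyclic AMP act through the factor CREB, and calcium acts through calcineurin and MEF2. All members can bind the NBRE, a short DNA site that takes a single receptor, as monomers, and Nr4a1 and Nr4a2, but not Nr4a3, can pair with the retinoid X receptor. In liver and muscle the family is known for control of glucose metabolism genes, and Nr4a2 is required for dopamine neurons.

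The genes lie on 3 chromosomes of GRCm38. Nr4a1 (ENSMUSG00000023034) spans 101254269 to 101274795 on the plus strand of chromosome 15. Nr4a2 (ENSMUSG00000026826) spans 57106830 to 57124003 on the minus strand of chromosome 2, and Nr4a3 (ENSMUSG00000028341) spans 48045153 to 48086445 on the plus strand of chromosome 4. The bases just before the starts are shown because they hold the sites through which cyclic AMP is known to reach this family, 5′ to 3′ on the strand of the gene, with every core of the cyclic AMP response element (CRE) in capitals (TGACG, or CGTCA where it lies on the opposite strand). They are RefSeq sequence of build GRCm38.p6, before the RefSeq starts. The stretches are chr15:101266596-101266845 for Nr4a1, chr2:57124004-57124253 on the minus strand for Nr4a2 and chr4:48045055-48045152 for Nr4a3, where the stretch ends at the first annotated exon. The RefSeq start of Nr4a1 is at 101266846, inside the span given above, and that of Nr4a2 at 57124003. That of Nr4a3 is at 48045305, and 152 of the 250 bases before it lie in an annotated exon.
Nr4a1: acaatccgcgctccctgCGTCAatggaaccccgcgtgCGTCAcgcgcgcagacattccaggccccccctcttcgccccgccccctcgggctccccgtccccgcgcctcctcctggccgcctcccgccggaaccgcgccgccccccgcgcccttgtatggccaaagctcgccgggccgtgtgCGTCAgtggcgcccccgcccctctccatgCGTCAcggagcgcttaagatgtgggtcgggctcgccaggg
Nr4a2: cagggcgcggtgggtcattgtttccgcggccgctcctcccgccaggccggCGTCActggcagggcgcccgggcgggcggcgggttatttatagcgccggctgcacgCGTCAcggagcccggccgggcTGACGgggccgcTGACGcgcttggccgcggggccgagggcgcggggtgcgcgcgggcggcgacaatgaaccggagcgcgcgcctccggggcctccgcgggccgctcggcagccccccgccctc
Nr4a3: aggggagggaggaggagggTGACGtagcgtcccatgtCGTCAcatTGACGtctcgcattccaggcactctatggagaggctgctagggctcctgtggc

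Each of the 3 promoters held 4 CRE cores in the 250 bases before the RefSeq start, of which the fourth of Nr4a3 lies beyond the stretch printed. At least 4 were found in 45 of the 32851 promoter windows of the same length in the table, from 27025 genes (0.137%), and at least 1 in 17.8%. The cores were arranged differently. In Nr4a1 all 4 read CGTCA, in a pair at -233 and -213 and a pair at -69 and -40 from the start (first base of each). Nr4a2 had 2 in each direction between -200 and -107, and Nr4a3 had 3 within -231 to -201 and the fourth at -147. The full element TGACGTCA, which contains both forms of the core, was in none of the 3 and in 1.55% of all windows. The NBRE (AAAGGTCA) was also in none of the 3, against 1.34% of windows, and so was the CArG box, against 1.47%. The Sp1 box GGGCGG was found 3 times before Nr4a1, 4 times before Nr4a2, where a pair overlapped, and once before Nr4a3, and 32.7% of windows held at least 1. A TATA box (TATAAA, 12.4% of windows) was found in Nr4a2, on the opposite strand at -164, where it overlapped a match to the MEF2 site (2.92% of windows). Both strands were searched, and a match describes letters, not binding.

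**Figure D1:**
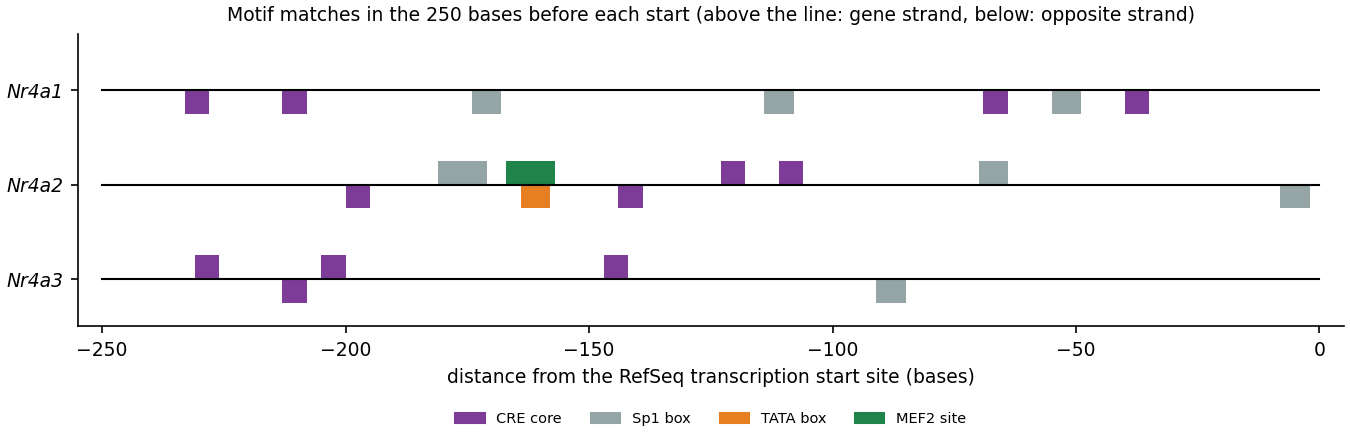
Motif matches in the 250 bases before the RefSeq start of each Nr4a gene, by distance from the start in bases. Boxes above a line are on the strand of the gene and boxes below it on the opposite strand, and each gene has 4 CRE cores (purple).

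The total of estimated counts per mouse was 73000203 to 78650116 in Ctrl, 72149987 to 78711121 in PBS and 48928823 to 79061296 in FLX, where replicates 3 to 6 had 48928823 to 52073640. The markers of proximal tubule, the main cell type of the kidney, summed to 705 to 1350 FPKM (fragments scaled by transcript length and library size) in all 18 mice. PBS replicate 6 stood apart, with summed injured tubule markers of 3970 FPKM against 541 to 938 in the other PBS mice and neutrophil markers of 67.1 against 7.34 to 26.5. The injured tubule sums were nearly all Spp1, named after its values were seen. The study deleted 1 PBS mouse with excessive expression of inflammatory factors and its text does not name it. The members' edgeR fold changes are therefore given with all 6 PBS mice and also without PBS replicate 6. So are the members' permutation and ratio tests that involve PBS mice. Fold changes of other genes and calls of markers are given with all 6 PBS mice only. All 3 members passed the filter on low counts, with 878 to 10307 counts per mouse for Nr4a1, 14 to 321 for Nr4a2 and 6 to 1953 for Nr4a3. The lower ends for Nr4a2 and Nr4a3 rest on few reads, and these values are correspondingly imprecise.

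In the unstressed kidney Nr4a1 was by far the most abundant member. On the per-length scale of FPKM it was at 7.94 ± 2.57 (SD, n = 6) in Ctrl mice, against 0.0954 ± 0.0364 for Nr4a2 and 0.0646 ± 0.0397 for Nr4a3. Within a Ctrl mouse, Nr4a1 was 46.9 to 284 times the level of Nr4a2 (median 70.1) and 50.5 to 258 times that of Nr4a3 (median 131). The ranges of Nr4a2 (0.0373 to 0.148) and Nr4a3 (0.0352 to 0.138) in Ctrl mice overlapped almost wholly, so that their order could not be told from these mice.

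Under CSDS, Nr4a3 rose and was the only member past the threshold with all 6 PBS mice, Nr4a2 lay at the threshold, and Nr4a1 did not pass it. The PBS values were uneven, and replicates 1, 4 and 5 were the highest PBS mice for every member. For Nr4a3 the PBS mice, replicates 1 to 6, had 3.82, 0.129, 0.295, 2.41, 1.47 and 0.355 FPKM, against 0.0352 to 0.138 in Ctrl mice (median 0.0464). Every PBS mouse but replicate 2 thus lay above every Ctrl mouse, and replicates 1, 4 and 5 stood far above the rest, at 59.2, 37.4 and 22.7 times the Ctrl mean. Group means were 0.0646 ± 0.0397 in Ctrl and 1.41 ± 1.47 FPKM in PBS (SD, n = 6 each). The log2 fold change was 4.45 (standard error 0.79, 95% interval 2.80 to 6.11, adjusted p = 0.00426 by edgeR's quasi-likelihood test with Benjamini-Hochberg adjustment), the 12th largest rise among 19946 genes tested. Without PBS replicate 6 it was 4.66 (adjusted p = 0.00204). The difference in mean log2(FPKM + 0.1) was 2.53 (exact two-sided permutation test over 6 against 6 mice, p = 0.00433, where the smallest p possible is 0.00216), and 2.73 without PBS replicate 6 (exact permutation p = 0.00433).

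For Nr4a2 the PBS mice had 0.566, 0.0470, 0.0744, 0.420, 0.927 and 0.213 FPKM, against 0.0373 to 0.148 in Ctrl (median 0.0936). Replicates 1, 4, 5 and 6 were above every Ctrl mouse and replicates 2 and 3 lay within the Ctrl range. The log2 fold change was 1.95 (standard error 0.55, 95% interval 0.80 to 3.10, adjusted p = 0.0505 by edgeR), and 2.07 without PBS replicate 6, where it passed the threshold (adjusted p = 0.0474). The adjusted p was also under 0.05 without PBS replicate 2 (0.0153) or PBS replicate 3 (0.0212) and with DESeq2 (0.00646). Other settings moved it the other way, to 0.105 without PBS replicate 1, 0.127 without PBS replicate 5, 0.117 with only the 2 groups fitted and 0.146 to 0.256 with limma on log2 FPKM. The exact permutation test gave p = 0.0758 for a difference of 0.97 in mean log2(FPKM + 0.1), and p = 0.102 for 1.02 without PBS replicate 6.

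For Nr4a1 the PBS mice had 34.4, 2.78, 4.77, 18.4, 21.8 and 5.79 FPKM, and the Ctrl mice 5.07 to 10.8 (median 8.02). The PBS mice thus fell on both sides of the Ctrl group, with replicates 1, 4 and 5 above every Ctrl mouse, replicates 2 and 3 below every Ctrl mouse, and replicate 6 within the Ctrl range. The log2 fold change was 0.90 (standard error 0.44, 95% interval -0.03 to 1.83, adjusted p = 0.271 by edgeR), 1.07 without PBS replicate 6 (adjusted p = 0.195) and 0.43 without PBS replicate 1 (adjusted p = 0.628). The exact permutation test gave p = 0.515 for a difference of 0.42 in mean log2(FPKM + 0.1), and p = 0.407 for 0.58 without PBS replicate 6. Across all genes 4.28% were called in this comparison, 489 higher and 364 lower (356 and 497 with upper-quartile scaling), and 1 of the 3 members was among them. The study's own threshold was a log2 fold change over 1 in size with an unadjusted p under 0.05. With all 6 PBS mice Nr4a2 and Nr4a3 were up-regulated by it, and 3.77% of all genes passed. Without PBS replicate 6 all 3 members passed it, Nr4a1 at 1.07 (unadjusted p = 0.0241 by edgeR), as did 664 of 20251 genes tested.

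**Figure D2:**
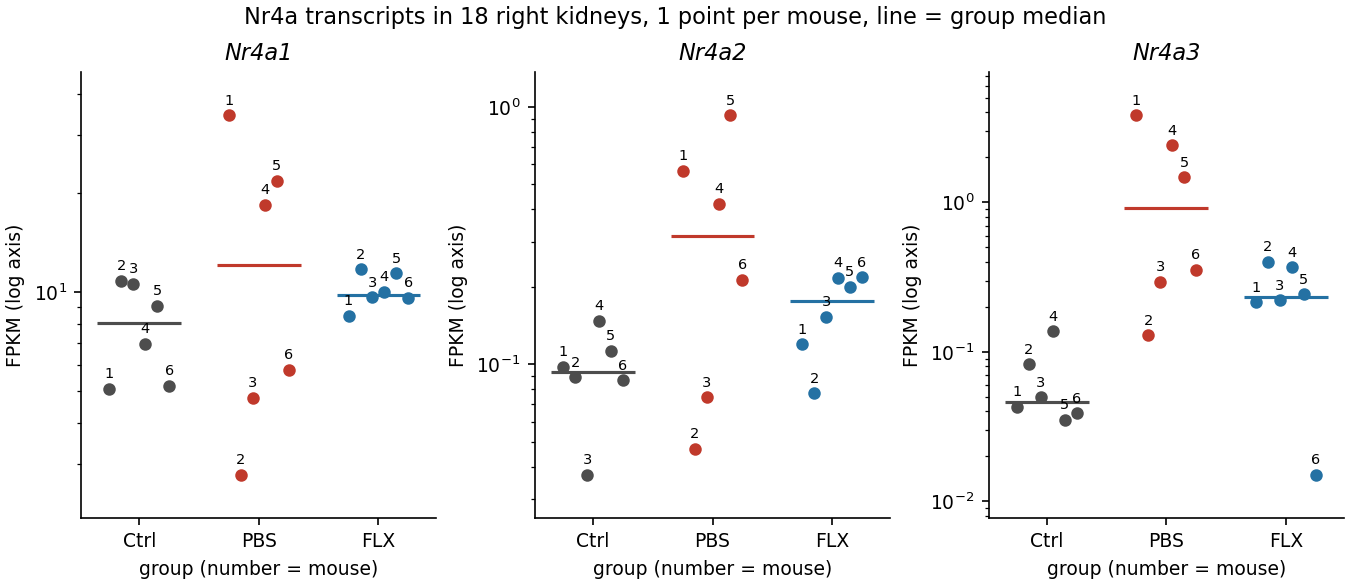
FPKM of each Nr4a gene (log axis) in the 6 mice of each group, with the replicate number beside each point and a line at the group median. PBS replicates 1, 4 and 5 are the highest of the 18 mice for all 3 genes, and FLX replicate 6 is the lowest for Nr4a3.

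The spread within the PBS group was itself wide. The highest PBS mouse had 12.4 times the Nr4a1 level of the lowest, 19.7 times the Nr4a2 level and 29.7 times the Nr4a3 level. On the log2(FPKM + 0.1) scale the SD over mice of Nr4a1 was 1.42 in PBS against 0.49 in Ctrl and 0.17 in FLX. That of Nr4a2 was 1.11 against 0.28 and 0.34, and that of Nr4a3 was 1.65 against 0.32 and 0.76.

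FLX versus PBS asks whether the values of defeated mice differed when fluoxetine was given. The mean of each member was lower in FLX than in PBS, and none of these differences passed the adjusted threshold of edgeR (2 had an unadjusted p under 0.05), against 0.557% of genes called over the table. Nr4a3 in FLX mice was at 0.215, 0.401, 0.222, 0.369, 0.244 and 0.0151 FPKM (mean 0.244 ± 0.137, SD, n = 6). No FLX mouse came near PBS replicates 1, 4 and 5, but 5 of the 6 lay within the range of PBS replicates 2, 3 and 6 or just above it. The log2 fold change was -2.63 (standard error 0.72, 95% interval -4.14 to -1.12, adjusted p = 0.104 by edgeR), and -2.84 without PBS replicate 6 (adjusted p = 0.0768). It passed the threshold with DESeq2 (-2.64, adjusted p = 0.0186) and without PBS replicate 2 (-2.87, adjusted p = 0.047).

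Nr4a2 in FLX mice was at 0.0774 to 0.218 FPKM (median 0.177, mean 0.164 ± 0.0576, SD, n = 6), inside the PBS range. Its log2 fold change against PBS was -1.28 (standard error 0.54, 95% interval -2.41 to -0.16, adjusted p = 0.326 by edgeR), and -1.40 without PBS replicate 6 (adjusted p = 0.315). Nr4a1 in FLX mice was at 8.47 to 11.7 FPKM (median 9.81, mean 10.1 ± 1.21, SD, n = 6), a narrow band with 3 PBS mice above it and 3 below it. Its log2 fold change against PBS was -0.63 (standard error 0.44, 95% interval -1.56 to 0.29, adjusted p = 0.627 by edgeR), -0.80 without PBS replicate 6 (adjusted p = 0.53) and -0.17 without PBS replicate 1 (adjusted p = 0.931). Exact permutation tests of mean log2(FPKM + 0.1) gave p = 0.981 for Nr4a1, 0.279 for Nr4a2 and 0.0844 for Nr4a3, and 0.792, 0.279 and 0.0736 without PBS replicate 6. At the study's threshold Nr4a2 and Nr4a3 were down-regulated, and 2.28% of all genes passed.

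FLX versus Ctrl compares defeated, fluoxetine-treated mice with undefeated mice. Nr4a3 was above every Ctrl mouse in 5 of the 6 FLX mice, at 0.215 to 0.401 FPKM, while FLX replicate 6, with 6 counts, was below every Ctrl mouse. The log2 fold change was 1.82 (standard error 0.73, 95% interval 0.29 to 3.35, adjusted p = 0.2 by edgeR). It did not pass the adjusted threshold, while the unadjusted p was 0.022, so that Nr4a3 passed the study's threshold, as did 2.09% of all genes. For Nr4a2 it was 0.67 (standard error 0.54, 95% interval -0.47 to 1.80, adjusted p = 0.558 by edgeR) and for Nr4a1 0.27 (standard error 0.44, 95% interval -0.66 to 1.19, adjusted p = 0.803). Without PBS replicate 6 in the fit the values were 1.82, 0.66 and 0.27 (adjusted p = 0.151, 0.525 and 0.771 by edgeR). These fits estimate the spread from all groups, PBS mice included, so their intervals do not describe the FLX and Ctrl mice alone. With only FLX and Ctrl mice fitted, the fold changes were the same and the standard errors were 0.54, 0.36 and 0.18. The 95% interval of Nr4a3 was then 0.66 to 2.99, and no member passed (adjusted p = 0.0779, 0.297 and 0.422 by edgeR). No member was among the 1.77% of genes called by edgeR. The exact permutation tests over mice gave p = 0.0952 for Nr4a1 (difference in mean log2(FPKM + 0.1) 0.41), 0.0455 for Nr4a2 (0.43) and 0.0216 for Nr4a3 (0.96), unadjusted among 9 such tests.

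**Figure D3:**
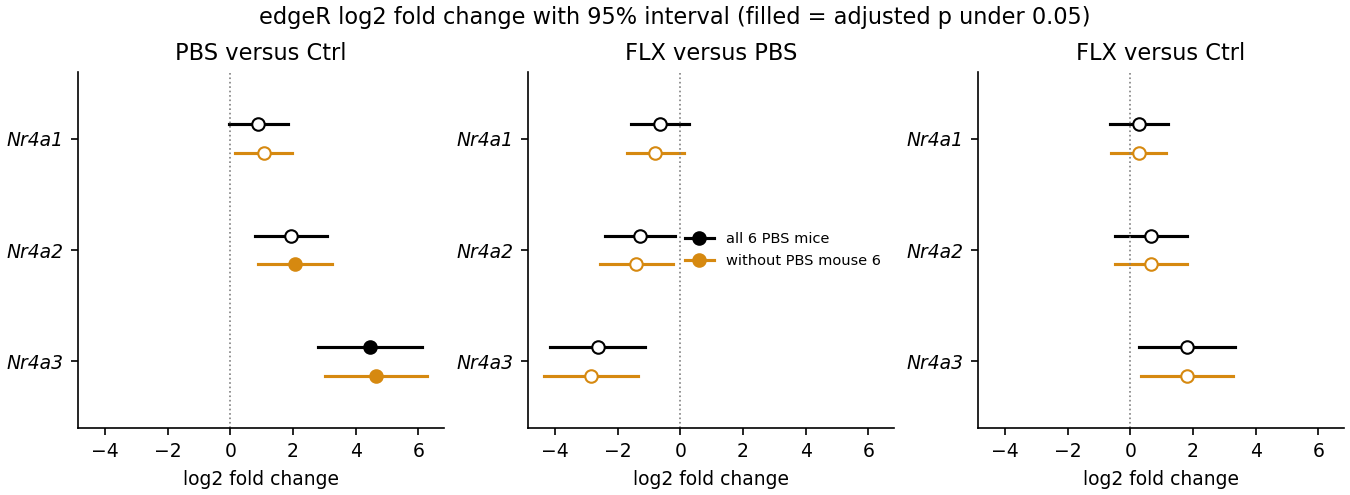
Log2 fold change of each Nr4a gene in the 3 comparisons (x axis) from edgeR with its 95% interval, with all 6 PBS mice (black) and without PBS replicate 6 (orange), filled where the adjusted p is under 0.05. In PBS versus Ctrl, Nr4a3 is filled in both fits, at 4.45 and 4.66, and Nr4a2 only without replicate 6.

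Whether the members changed by different amounts was tested on their ratio within each mouse. A ratio of FPKM removes what raises or lowers all 3 by the same factor. The tests used FPKM + 0.1, and 0.1 exceeds most Ctrl values of Nr4a2 and Nr4a3. In these tests such a factor is therefore removed only in part. Nr4a3 rose relative to Nr4a1 in every PBS mouse, including those in which Nr4a1 was low. In FPKM, Nr4a1 was 7.62 to 21.6 times Nr4a3 in PBS mice (median 15.5), below the whole Ctrl range of 50.5 to 258. The log2 ratio of Nr4a3 to Nr4a1, on FPKM + 0.1, was -5.57 ± 0.54 in Ctrl and -3.47 ± 0.37 in PBS (SD, n = 6 each), a difference of 2.11 with no overlap of the groups (exact two-sided permutation test, p = 0.00216, the smallest possible). In FLX mice Nr4a1 was 27.1 to 638 times Nr4a3 in FPKM (median 41.3). The log2 ratio was -5.02 ± 0.71 (SD, n = 6), lower than in PBS by a difference of -1.56, again with no overlap (exact permutation p = 0.00216), and 0.55 above Ctrl (exact permutation p = 0.154).

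Nr4a3 also rose relative to Nr4a2 in the PBS group, by 1.56 on the log2 scale with no overlap with Ctrl (exact permutation p = 0.00216). In FLX versus PBS that ratio differed by -1.02 (exact permutation p = 0.0866) and in FLX versus Ctrl by 0.53 (exact permutation p = 0.24). The ratio of Nr4a2 to Nr4a1 did not pass in any comparison, with differences of 0.55 for PBS versus Ctrl, -0.53 for FLX versus PBS and 0.02 for FLX versus Ctrl (exact permutation p = 0.141, 0.0887 and 0.952). The 9 ratio tests are unadjusted. The pseudocount matters for these low genes, and with 1 in place of 0.1 the rise of Nr4a3 over Nr4a1 in PBS versus Ctrl was 0.55 (exact permutation p = 0.0779), while with 0.01 it was 3.10 (p = 0.00216). For the same ratio in FLX versus PBS, a pseudocount of 1 gave -0.69, with overlap of the groups (exact permutation p = 0.0152), and with 0.01 the groups did not overlap (p = 0.00216). Without PBS replicate 6 the PBS versus Ctrl differences of Nr4a3 to Nr4a1 and Nr4a3 to Nr4a2 were 2.15 and 1.71 (exact permutation p = 0.00216 for both), and the FLX versus PBS differences were -1.60 (p = 0.00216) and -1.18 (p = 0.0671). For Nr4a2 to Nr4a1 they were 0.45 and -0.43 (exact permutation p = 0.253 and 0.182).

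**Figure D4:**
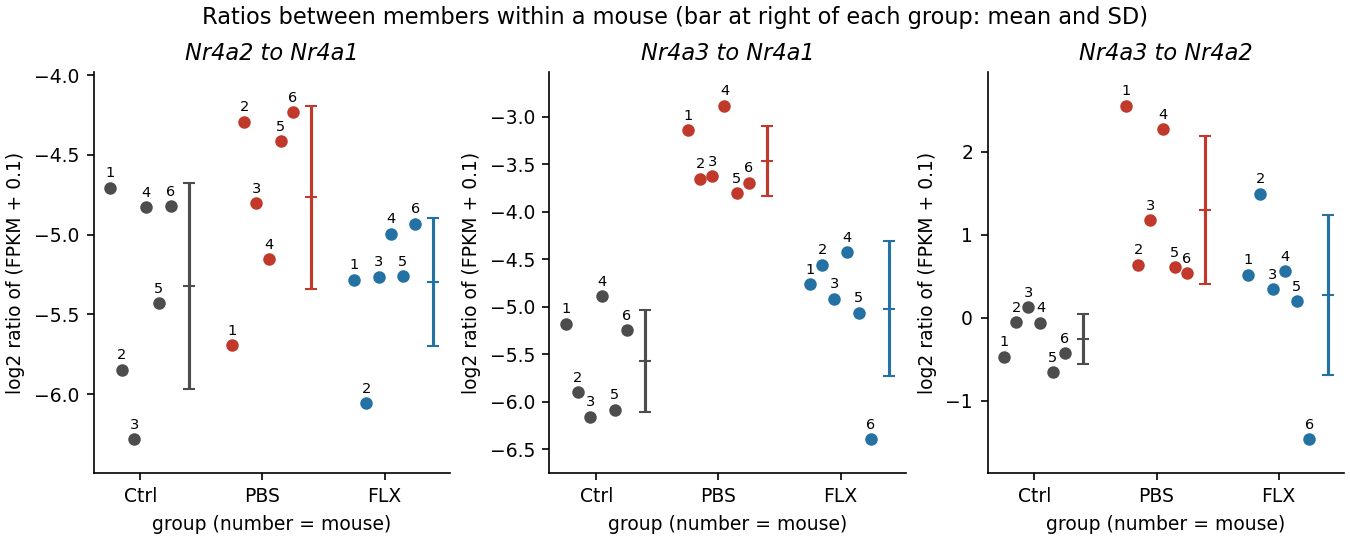
Log2 ratio of (FPKM + 0.1) between pairs of Nr4a genes within each mouse, by group, with the replicate number beside each point and the mean and SD at the right of each group. For Nr4a3 to Nr4a1 all 6 PBS mice lie above all Ctrl and FLX mice, with group means of -3.47, -5.57 and -5.02.

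PBS replicates 1, 4 and 5 were the 3 highest of all 18 mice for each member. PBS replicate 1 led for Nr4a1 and Nr4a3, and PBS replicate 5 for Nr4a2. PBS replicate 2 was the lowest PBS mouse for all 3 genes, followed by replicate 3 and then replicate 6. In the other groups Ctrl replicate 4 was the highest Ctrl mouse for Nr4a2 and Nr4a3, and FLX replicate 2 the highest FLX mouse for Nr4a1 and Nr4a3.

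Over all 18 mice the members were correlated on the log2(FPKM + 0.1) scale, while in the 12 Ctrl and FLX mice none of these correlations passed. Pooled over groups, Pearson's r was 0.75 for Nr4a1 and Nr4a2, 0.70 for Nr4a1 and Nr4a3 and 0.78 for Nr4a2 and Nr4a3 (permutation p = 0.0005, 0.00108 and 0.00051, adjusted p = 0.00459, 0.00648 and 0.00459 by Benjamini-Hochberg over 18 relations). Spearman's rho was 0.54, 0.558 and 0.484 (permutation p = 0.0223, 0.0174 and 0.0441, adjusted p = 0.0801, 0.0781 and 0.113). Without the 2 mice farthest from the median of the first gene, r was 0.65, 0.62 and 0.61. As deviations from the group means, r was 0.78, 0.85 and 0.68 (permutation p within groups = 0.0332, 0.00344 and 0.0732), of which that of Nr4a1 and Nr4a3 passed adjustment (adjusted p = 0.0853, 0.0155 and 0.146), with rho of 0.61, 0.763 and 0.602 (permutation p = 0.0695, 0.0135 and 0.061) and r of 0.65, 0.69 and 0.58 without the 2 farthest mice.

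In PBS mice alone (n = 6) r was 0.93, 0.98 and 0.86 (exact permutation p = 0.0181, 0.00694 and 0.0472, adjusted p = 0.0542, 0.025 and 0.106), with rho of 0.943, 0.943 and 0.829 (exact permutation p = 0.0167, 0.0167 and 0.0583). Without the 2 farthest mice it was 0.93, 0.95 and 0.93. These values rest on the gap between PBS replicates 1, 4 and 5 and replicates 2, 3 and 6, and neither set of 3 is large enough for a correlation of its own.

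In the 12 Ctrl and FLX mice no Pearson correlation between members had a permutation p under 0.05. Taken as deviations from their group means, r was -0.26 for Nr4a1 and Nr4a2 (permutation p = 0.449), 0.18 for Nr4a1 and Nr4a3 (p = 0.43) and -0.21 for Nr4a2 and Nr4a3 (p = 0.593). Spearman's rho was -0.175, 0.28 and -0.0629 (permutation p = 0.602, 0.339 and 0.859), and without the 2 farthest mice r was -0.30, 0.12 and -0.01. In Ctrl alone (n = 6) r was -0.37, 0.16 and 0.49 (exact permutation p = 0.517, 0.807 and 0.332), with rho of -0.257, 0.314 and 0.143 (exact permutation p = 0.658, 0.564 and 0.803). In FLX alone (n = 6) r was -0.13, 0.39 and -0.46 (exact permutation p = 0.779, 0.454 and 0.357), with rho of -0.257, 0.886 and -0.429 (exact permutation p = 0.658, 0.0333 and 0.419). The rank correlation of Nr4a1 and Nr4a3 in FLX did not hold after adjustment (adjusted p = 0.1). Whether a correlation differed between groups was not tested.

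The genes whose pattern over the 18 mice was most like the mean standardised profile of the members included other stress-induced genes. Atf3, a stress-induced transcription factor gene of the ATF/CREB family, was closest (r = 0.878), at 11.9, 10.8 and 3.18 FPKM in PBS replicates 1, 4 and 5 and 0.606 to 2.44 FPKM in the other 15 mice. Gpt2, which encodes an alanine aminotransferase of mitochondria, followed (r = 0.857), and then Errfi1 (r = 0.812), a feedback inhibitor of the EGF receptor. The other 5 were A3galt2 (0.799), Csrnp1 (0.798), Id1 (0.797), Stk40 (0.793) and Ifrd1 (0.793), of which Csrnp1 encodes an immediate early nuclear protein and Id1 an inhibitor of helix-loop-helix factors. These values rest in part on the same 3 PBS mice. Over the 15 mice without PBS replicates 1, 4 and 5, r with the profile was 0.33 to 0.71, with 0.68 for Atf3, 0.71 for Gpt2 and 0.33 for Csrnp1. Of 19945 other genes, Nr4a2 ranked 7th and Nr4a3 21st in likeness to Nr4a1. Nr4a3 ranked 3rd and Nr4a1 20th for Nr4a2. For Nr4a3 the closest gene was Atf3, and Nr4a2 ranked 28th and Nr4a1 94th. The 18 mice come from 3 groups, and these values are descriptive.

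**Figure D5:**
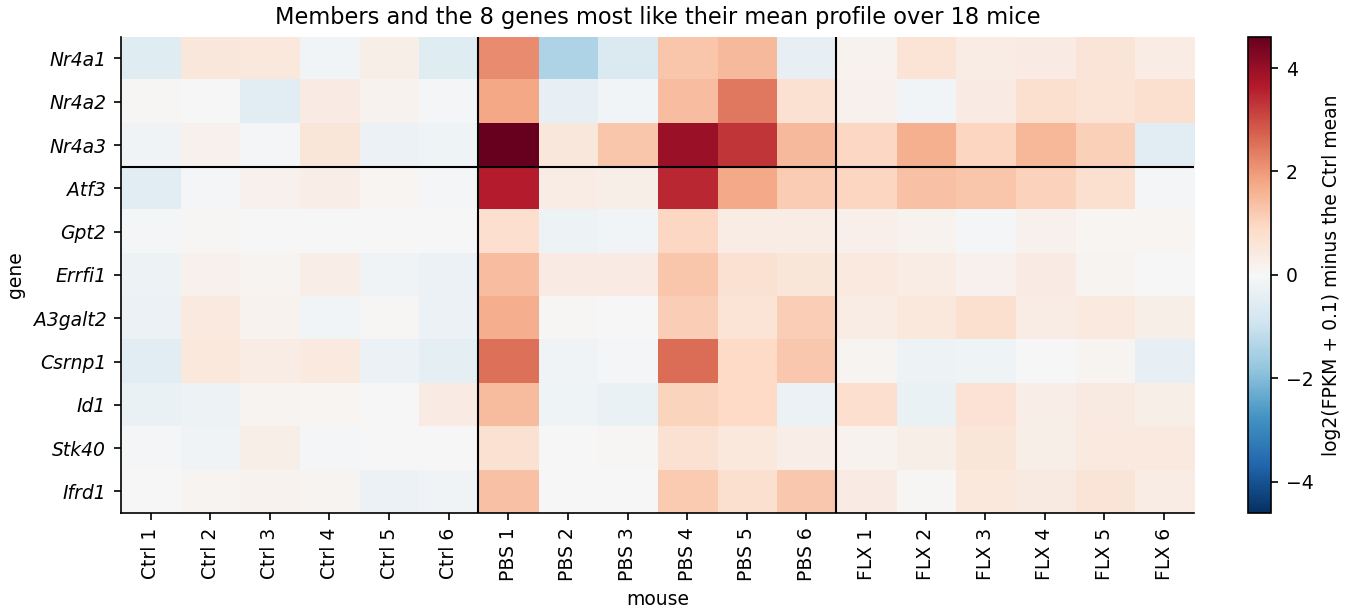
Log2(FPKM + 0.1) minus the Ctrl mean (colour) of the 3 Nr4a genes (top rows) and the 8 genes most like their mean profile (rows below), in 18 mice (columns). PBS replicates 1 and 4 are the darkest columns for Nr4a3, Atf3 and Csrnp1.

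Among genes of the signals known to feed Nr4a transcription (cyclic AMP, CREB, calcineurin and MEF2), all 34 were tested. In PBS versus Ctrl 5 rose and none fell, against 4.28% of all genes called, 11 had an unadjusted p under 0.05, and 29 of 34 had a log2 fold change above 0, with a median of 0.23 against 0.00 for all genes tested. Crem, a CREB relative that is itself induced by cyclic AMP, rose from 1.47 ± 0.214 to 2.58 ± 0.685 FPKM (SD, n = 6 each, log2 fold change 0.80, adjusted p = 0.0118 by edgeR). Pde4d, a phosphodiesterase that breaks down cyclic AMP, rose by 1.01 on the log2 scale (adjusted p = 0.0228). The protein kinase A regulatory subunit genes Prkar1a and Prkar2a rose by 0.32 and 0.38 (adjusted p = 0.0202 and 0.0317), and Srf, named because it completes the count, by 0.39 (adjusted p = 0.0441). Without PBS replicate 6, 4 of these were called, since the adjusted p of Prkar2a became 0.05. In FLX versus PBS none passed by edgeR (3 at an unadjusted p under 0.05), with a median of -0.12. In FLX versus Ctrl, against 1.77% of all genes called, 3 rose and none fell, namely Prkar2a, Creb1 and Srf (0.38, 0.46 and 0.47), the last 2 named after their values were seen.

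Of genes known as Nr4a targets in other tissues, 18 of 20 were tested. In PBS versus Ctrl 1 of 18, Pck1, was called, against 4.28% of all genes, with 13 of 18 above 0 and a median of 0.33. Pck1, the gluconeogenic enzyme phosphoenolpyruvate carboxykinase that the proximal tubule makes in quantity, rose from 349 ± 50.4 to 648 ± 154 FPKM (SD, n = 6 each, log2 fold change 0.88, adjusted p = 0.00586 by edgeR). In FLX mice its mean was 364 ± 89.2 FPKM (SD, n = 6). Against PBS it fell by 0.92 on the log2 scale (adjusted p = 0.0164 by edgeR), the only call of the list in that comparison (1 of 18, against 0.557% of all genes), where the median was -0.30. Against Ctrl the FLX value differed by -0.03 (adjusted p = 0.945), and no gene of the list was called by edgeR (1 at an unadjusted p under 0.05). Fbp2, Star and Ucp1 had log2 fold changes of 0.48, 0.55 and 4.40 in PBS versus Ctrl (adjusted p = 0.114, 0.0934 and 0.132). Of these, Ucp1 is also a marker of brown fat and Star of adrenal cortex. Both were highest in PBS replicate 5, at 214 and 1.21 FPKM, and the part of other tissue in their values was not tested.

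Of the other nuclear receptors 42 were tested. In PBS versus Ctrl 1 was called lower and none higher by edgeR (6 at an unadjusted p under 0.05), against 4.28% of all genes called, with 22 above 0 and a median of 0.02. Thra, the thyroid hormone receptor alpha gene, fell by 0.43 on the log2 scale (adjusted p = 0.00971). Nr2f2, Nr3c1 (the glucocorticoid receptor) and Hnf4a had values of -0.26, -0.26 and 0.22 (adjusted p = 0.158, 0.205 and 0.205). In FLX versus PBS, against 0.557% of all genes called, 2 were lower, the heme receptors of the circadian clock Nr1d1 (-2.10) and Nr1d2 (-1.29), named after their values were seen (adjusted p = 0.0107 for both), and the count without PBS replicate 6 was 2 lower and 2 higher. In FLX versus Ctrl, against 1.77% of all genes, the same 2 were lower and Ppard, the receptor PPAR delta, was higher (1.17, adjusted p = 0.0241), with 3 higher without PBS replicate 6.

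Several other immediate early genes rose in PBS mice. Of 28 tested, 7 rose and 1 fell in PBS versus Ctrl (8 and 1 without PBS replicate 6), against 4.28% of all genes called, 24 had a log2 fold change above 0, and the median was 0.56. Gadd45g, a growth arrest gene, rose by 1.90 (adjusted p = 0.00111 by edgeR), Trib1, a pseudokinase gene, by 1.55 (0.00769) and Atf3 by 2.51 (0.0124). Ccn1, a matrix protein gene, fell by 1.23 on the log2 scale (adjusted p = 0.0101). The members' values in that comparison, 0.90, 1.95 and 4.45, lay above the list's median, and that of Nr4a3 lay above every named gene of the list. In FLX versus PBS, against 0.557% of all genes called, 2 of 28 were lower and none higher (20 at an unadjusted p under 0.05), Maff (-2.28) and Gadd45b (-0.91), named after their values were seen, and the median was -0.85. In FLX versus Ctrl, against 1.77%, 3 rose, Klf2, Klf4 and Gadd45g (1.04, 0.87 and 1.10), the first 2 also named after their values were seen, and the median was -0.05.

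Clock genes were also among those called. In PBS versus Ctrl 3 of 18 rose, Per1 by 2.11 (adjusted p = 8.76e-05 by edgeR), Nfil3 by 1.87 (adjusted p = 0.000785) and Cry1 by 0.94 (adjusted p = 0.023), and none fell, against 4.28% of all genes called. Ciart had a value of 1.14 (adjusted p = 0.0829). Per1, like the members, is a gene that CREB can induce. In FLX versus PBS 3 were higher and 5 lower (3 and 7 without PBS replicate 6), against 0.557% of all genes called, and in FLX versus Ctrl 4 and 6 (6 and 7 without PBS replicate 6), against 1.77%. The labels and methods used here give no hour of dissection, and the part of time of day in the Nr4a values was not tested.

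Markers of other cell types were set beside the members. Over all genes 4.28% were called in PBS versus Ctrl, 0.557% in FLX versus PBS and 1.77% in FLX versus Ctrl. Neutrophil markers (10 listed, 8 tested, 4 called in PBS versus Ctrl and 1 in FLX versus PBS) summed to 1.56 to 3.56 FPKM in Ctrl, 7.34 to 67.1 in PBS and 0.514 to 5.92 in FLX. In PBS replicates 1, 4 and 5, the mice with high Nr4a levels, the sums were 9.61, 26.5 and 8.61, and in replicates 2, 3 and 6 they were 7.34, 16.5 and 67.1. Injured tubule markers (6 listed, 2 called in PBS versus Ctrl and 1 in FLX versus Ctrl) summed to 288 to 535 FPKM in Ctrl, 541 to 3970 in PBS and 374 to 692 in FLX, and PBS replicates 1, 4 and 5 had 563, 938 and 541. Nearly all of each sum was Spp1, at 285 to 532 FPKM in Ctrl and 534 to 3900 in PBS. For every other gene of that list the Ctrl and PBS ranges overlapped. Havcr1, for example, was at 0.242 to 0.932 FPKM in Ctrl and 0.346 to 9.75 in PBS (both genes named after their values were seen). The highest sums of both lists were in PBS replicate 6, in which Nr4a1 lay within the Ctrl range (5.79 FPKM) while Nr4a2 (0.213 FPKM) and Nr4a3 (0.355 FPKM) lay above every Ctrl mouse.

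Some markers of cells of the vessel wall and the glomerulus were also called, against 4.28% of all genes in PBS versus Ctrl and 1.77% in FLX versus Ctrl. Smooth muscle and pericyte markers (6 listed, 2 called in PBS versus Ctrl and 1 in FLX versus Ctrl) summed to 37 to 60.1 FPKM in Ctrl, 53.8 to 134 in PBS and 54 to 115 in FLX. PBS replicates 1, 4 and 5 had 88, 53.8 and 88, and replicates 2, 3 and 6 had 72.7, 67.3 and 134. Renin cell markers (2 of 3 listed tested, 1 called in PBS versus Ctrl) summed to 32.2 to 59.3 FPKM in Ctrl, 50.4 to 503 in PBS and 54.6 to 101 in FLX, with 50.4, 70.6 and 68 in PBS replicates 1, 4 and 5. Podocyte markers (5 listed, 1 called in PBS versus Ctrl) summed to 39.7 to 54 FPKM in Ctrl, 52 to 90.5 in PBS and 46.8 to 76.5 in FLX. For these 3 lists too the highest sum was in PBS replicate 6. Of the distal convoluted tubule markers 1 of 3 was called in both PBS and FLX versus Ctrl. Of the principal cell markers 1 of 4 was called in PBS versus Ctrl, and of the endothelial markers 1 of 8 in FLX versus Ctrl. Each is a call of 1 gene and gives no direction for a cell type.

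Fat markers varied widely between samples. In PBS versus Ctrl 4.28% of all genes were called. Brown fat markers (6 listed, 1 called in PBS versus Ctrl) summed to 16.1 to 98.7 FPKM in Ctrl, 12.2 to 795 in PBS and 23.2 to 407 in FLX, and white fat markers (6 listed, none called by edgeR) to 14.3 to 226, 39.9 to 1150 and 39.3 to 1310. PBS replicate 5 had the highest of the PBS sums for both, while PBS replicate 4 had 32.6 and 146 FPKM and PBS replicate 1 had 124 and 246. Without PBS replicate 5 the log2 fold change of Nr4a3 in PBS versus Ctrl was 4.46 (adjusted p = 0.00684 by edgeR), and that of Nr4a2 was 1.48 (adjusted p = 0.127 by edgeR). Adrenal cortex markers, of which 3 of 8 were tested and none called, summed to 0.572 to 1.38 FPKM in Ctrl, 1.02 to 3.83 in PBS and 0.878 to 1.73 in FLX, highest in PBS replicate 5. Cyp11b2, which defines the aldosterone-making zone, was listed at 0 in every mouse but that one (0.0808 FPKM). Adrenal medulla markers did not exceed 0.543 FPKM in sum. Beyond these values, the part of other cell types in the Nr4a levels was not tested.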

How the data were processed

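Poly(A) RNA of 18 right kidneys was sequenced in read pairs. By the methods, reads were cleaned with fastp, aligned to GRCm38 with HISAT-3N and assembled with StringTie, while the submitters' processing notes name cutadapt 1.9, HISAT2 2.0.4, UMI-tools, StringTie 1.3.4d, DESeq2 and edgeR without roles. Per gene and mouse, the authors deposited FPKM and estimated counts. The counting tool is not stated in the methods or labels read here. More genes held 4 counts (720, median over mice) than 3 (484) or 5 (268), and the counts were taken as estimates.

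Groups came from the sample titles. Counts were tested with edgeR 4.0.16 (quasi-likelihood, TMM, filterByExpr, all 18 mice in 1 model, 19946 genes, R 4.3.3) with Benjamini-Hochberg adjustment, called under 0.05. Single values were tested on log2(FPKM + 0.1) by exact two-sided permutation, 924 splits of 6 against 6. Correlations over 18 or 12 mice used 100000 permutations (within groups for deviations) and those over 6 mice all 720 pairings. Promoter windows are RefSeq sequence on GRCm38.p6, in which all 3 members were matched, with exons from GENCODE. The fit was tested on simulated data. Alternatives were upper-quartile scaling, no filter, DESeq2, limma on log2 FPKM with pseudocounts 0.01, 0.1 and 1, the replicate block, only the groups compared, subsets of FLX mice, and each mouse left out. Counts within gene lists without PBS replicate 6 and deviations over the 12 Ctrl and FLX mice were added after seeing the data.

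Members and lists were chosen with earlier results of these data known. Named were the members, the 4 genes of each list with the smallest p in PBS versus Ctrl, and the 8 genes most like the members, others being marked as named after their values were seen. Nr1h5, Egr4, Cyr61 (present as Ccn1) and Ren2 were not matched in the table by these symbols.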

Additional observations from a re-analysis of the deposited data

Results flagged for a closer look

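Each group of 6 mice was checked for a highest or lowest mouse whose gap to the next, divided by the range of the group, exceeded Dixon's 95% critical value, in 27 combinations of measure and group. Chance flags about 1 in 20 groups. FLX replicate 6 was flagged for Nr4a3, with a log2(FPKM + 0.1) of -3.12 (gap over range 0.685), from 0.0151 FPKM and 6 counts, while the other FLX mice had 0.215 to 0.401 FPKM. The same mouse was flagged for the log2 ratio of Nr4a3 to Nr4a1, at -6.40 (gap over range 0.678), with Nr4a1 at 9.61 FPKM, within the FLX range. FLX replicate 2 was flagged for the log2 ratio of Nr4a2 to Nr4a1, at -6.06 (gap over range 0.687), with the lowest Nr4a2 (0.0774 FPKM) and the highest Nr4a1 (11.7 FPKM) of its group. None of the PBS or Ctrl values of the 3 genes and their ratios was flagged by this test.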

How the results depend on the processing

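Of 162 log2 fold changes of the members with a mouse left out, 158 kept their direction and their side of the threshold, as did 96 of 99 under other settings, and none changed direction. The exceptions were Nr4a2 in PBS versus Ctrl, called with DESeq2 (1.95, adjusted p = 0.00646) and without PBS replicate 2, 3 or 6, Nr4a3 in PBS versus Ctrl, not called with limma on log2(FPKM + 1) (0.97, adjusted p = 0.051), and Nr4a3 in FLX versus PBS, called with DESeq2 (-2.64, adjusted p = 0.0186) and without PBS replicate 2. The cause was not tested. Both tallies include settings that alter only the group outside a comparison, where the fold change is nearly fixed. With any FLX mouse left out, for example, Nr4a3 in PBS versus Ctrl was 4.45 or 4.46. With each mouse left out in turn, PBS versus Ctrl was 0.43 to 1.11 for Nr4a1, 1.48 to 2.18 for Nr4a2 and 3.85 to 4.81 for Nr4a3 (adjusted p 0.00192 to 0.0156). FLX versus PBS was -0.85 to -0.17, -1.51 to -0.81 and -2.87 to -2.03, and FLX versus Ctrl 0.17 to 0.38, 0.49 to 0.83 and 1.61 to 2.18. On limma's log2(FPKM + 0.1) scale, Nr4a1 in FLX versus PBS was -0.01. The exact permutation difference of Nr4a3 in FLX versus Ctrl was 1.51 (exact permutation p = 0.0519) with a pseudocount of 0.01. With a pseudocount of 1, the ratio of Nr4a3 to Nr4a1 in PBS versus Ctrl was 0.55 (exact permutation p = 0.0779), and differences not called at 0.1 changed sign, to -0.14 for that ratio in FLX versus Ctrl and to -0.12 and -0.27 for Nr4a2 to Nr4a1 in PBS and FLX versus Ctrl. Here the pseudocount exceeds most Nr4a2 and Nr4a3 values. The pooled correlations of Nr4a1 with Nr4a2, Nr4a1 with Nr4a3 and Nr4a2 with Nr4a3 were 0.67 to 0.81, 0.56 to 0.75 and 0.72 to 0.84 with a mouse left out, each with a permutation p under 0.05, as they were in PBS alone. Over the Ctrl and FLX mice they were 0.14, 0.46 and 0.28, and as deviations there -0.26, 0.18 and -0.21. They were -0.37, 0.16 and 0.49 in Ctrl alone and -0.13, 0.39 and -0.46 in FLX alone, with no exact permutation p under 0.05, and deviations over 18 mice gave 0.68 for Nr4a2 and Nr4a3 (permutation p = 0.0732).

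Deviations from group means of same-numbered mice correlated by -0.23 to 0.23 over the genes tested. Differently numbered mice were not compared, so these values cannot tell whether replicate numbers pair the mice. With the replicate block, Nr4a1, Nr4a2 and Nr4a3 had log2 fold changes of 0.64, 1.57 and 4.06 in PBS versus Ctrl (adjusted p = 0.544, 0.109 and 0.0122), Nr4a3 was at -2.36 in FLX versus PBS (adjusted p = 0.187), and 539, 48 and 99 genes were called over the table in the 3 comparisons.

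Counts over all genes moved more than the members. Against 853, 111 and 354 genes called, other settings gave 343 (only the groups compared) to 1637 (DESeq2), 0 (FLX replicates 1 and 2 only, where edgeR with 2 FLX mice passed 571 at the study's threshold) to 518, and 2 to 1059. Leaving out 1 mouse gave 432 to 1724, 33 to 192 and 68 to 2103, highest without Ctrl replicate 3. Few counts limit Nr4a2 and Nr4a3 in FLX mice (28 to 53 and 6 to 208 counts), of which replicates 3 to 6 are the shallower libraries. They limit these genes in Ctrl mice as well (14 to 54 and 19 to 73 counts).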
